A study of Homo sapiens with 18 samples.

Results

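Olfactory receptor genes were examined as genes taken to be silent outside the nose, in chromatin accessibility libraries of a kidney cell line. Their expression in these cells was not measured here. The members are the rows of the gene count table whose symbol is OR, a single digit, letters and a number, with no pseudogene suffix. This pattern took 278 of the 54425 genes of the table, in 114 subfamilies of 9 families. It used only the symbol and no measured value. RefSeq held 275 of the 278, of which 261 were typed as protein-coding and 14 as pseudogenes or transcribed pseudogenes. They lay on 15 chromosomes, 99 of them on chromosome 11 and 46 on chromosome 1.

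The libraries came from HEK293T, an established human embryonic kidney line, stably transfected with fusion genes of the leukemia translocation t(4;11). ATAC-seq, in which a transposase cuts and tags accessible DNA, was run in 3 settings. AF4-MLL cells carried inducible AF4-MLL, MLL-AF4 cells carried inducible MLL-AF4, and co-expression cells carried MLL-AF4 that is always on together with inducible AF4-MLL. Doxycycline (1 µg/ml, 48 h) induced the transgene in every setting, and nuclei were taken on day 3 and on day 28, when the inducible gene had been off since the drug was removed. Each of the 6 groups held 3 libraries. No untransfected or uninduced library was among the 18, so every comparison is between cells that carry a fusion gene and have seen doxycycline. The vectors were Sleeping Beauty transposon vectors, and in the co-expression cells the AF4-MLL plasmid was introduced transiently and segregated out after selection was lifted. The titles number the libraries with the prefix BR and the study's methods call its replicates biological, but neither says how the cultures were kept apart, so p-values measure the spread between these libraries, part of which may be technical. Where values are listed for the 3 settings, AF4-MLL cells come first, MLL-AF4 cells next and co-expression cells last.

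Olfactory receptors are G protein-coupled receptors of the olfactory sensory neurons, and each mature neuron of the nasal epithelium expresses a single receptor allele. Elsewhere, and in the neuron for every receptor but the chosen one, the gene clusters are packed into heterochromatin marked by methylated histone H3. The genes are short, with a coding region in 1 exon, and many have an upstream noncoding exon. Their promoters tend to be poor in CpG dinucleotides, unlike those of genes that are active in every cell. ATAC-seq counts over such a gene give the level of cutting that it receives and not its expression, so the identity of the cells could not be checked by expressed markers either.

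The windows from 250 bases before to 50 bases after the RefSeq gene start are shown for 4 genes, because they carry the base composition that sets receptor genes apart from active genes. They are from RefSeq on GRCh38.p14, are written 5′ to 3′ on the strand of the gene, and have every CG dinucleotide in capitals. OR4D1 had the highest count, and OR4M2 the lowest (tied with OR5M3), among the members with a window whose annotated start is not followed directly by ATG. OR3A2 had the most CG dinucleotides of any member window, and RPL13 was the ribosomal protein gene with the highest count. OR4D1 is at chr17:58148134-58148433 on the plus strand, OR4M2 at chr15:22080277-22080576 on the plus strand, OR3A2 at chr17:3386259-3386558 on the minus strand and RPL13 at chr16:89560407-89560706 on the plus strand.
OR4D1: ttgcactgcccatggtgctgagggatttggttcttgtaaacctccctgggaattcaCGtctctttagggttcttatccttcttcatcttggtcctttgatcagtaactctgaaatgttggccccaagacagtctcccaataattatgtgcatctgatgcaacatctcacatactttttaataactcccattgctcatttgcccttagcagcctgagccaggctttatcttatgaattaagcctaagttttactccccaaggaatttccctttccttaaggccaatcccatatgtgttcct
OR4M2: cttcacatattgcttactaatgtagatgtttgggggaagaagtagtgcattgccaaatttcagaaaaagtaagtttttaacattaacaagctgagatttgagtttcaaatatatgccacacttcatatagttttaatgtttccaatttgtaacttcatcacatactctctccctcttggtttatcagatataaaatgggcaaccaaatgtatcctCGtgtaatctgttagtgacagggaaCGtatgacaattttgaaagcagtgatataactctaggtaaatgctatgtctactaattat
OR3A2: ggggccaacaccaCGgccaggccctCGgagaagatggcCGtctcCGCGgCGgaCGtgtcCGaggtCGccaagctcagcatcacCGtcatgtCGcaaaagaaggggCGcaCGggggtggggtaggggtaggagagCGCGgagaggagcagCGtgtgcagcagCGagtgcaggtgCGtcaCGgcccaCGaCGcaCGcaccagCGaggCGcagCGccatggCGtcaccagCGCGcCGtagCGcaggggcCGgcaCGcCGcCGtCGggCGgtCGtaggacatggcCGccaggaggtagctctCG
RPL13: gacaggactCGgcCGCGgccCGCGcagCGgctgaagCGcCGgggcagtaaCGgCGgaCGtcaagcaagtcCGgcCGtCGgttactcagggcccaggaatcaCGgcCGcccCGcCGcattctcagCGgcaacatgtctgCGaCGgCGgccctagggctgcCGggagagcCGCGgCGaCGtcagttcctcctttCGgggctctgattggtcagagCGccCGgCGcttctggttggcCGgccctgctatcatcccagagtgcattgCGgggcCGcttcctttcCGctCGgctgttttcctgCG

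OR4D1, with 137 counts over the 18 libraries, had 1 CG in its window, and OR4M2, with 2 counts, had 2. OR3A2 had 39 CG dinucleotides in its window and a count of 38, while RPL13 had 37 and a count of 2741. Both windows were rich in CG, but RPL13 is shown because its count is the highest of its list. The 38 counts of OR3A2 lay above the upper quartile of the members, 36.75. RefSeq gave 222 windows for 215 of the members, 7 of which had more than 1. Their median number of CG dinucleotides was 1, against 14 over all 35116 windows and 23 over the 84 windows of ribosomal protein genes. At most 2 CG dinucleotides were present in 79.7% of the member windows and in 18.2% of all windows. The median GC content was 37.7% in member windows and 58.7% in all windows. Among the members the count over 18 libraries was nearly unrelated to the number of CG dinucleotides (Spearman rho 0.09 over 208 members with 1 window, which share the libraries). With the GC content of the window rho was 0.42 over the same members.

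The annotated start of many members is the coding start. In 86 of the 222 windows, 38.7%, the start was followed directly by ATG, against 2.29% of all windows, so these windows need not be promoters. Among members with 1 window, the median count was 14 for the 84 genes that begin so and 31 for the other 124. Letters of factors that act on receptor genes in olfactory neurons were searched in both strands. The homeodomain core TAATTA, the kind of site that LHX2 binds, was present in 23.0% of member windows and 4.84% of all windows. CCCNNGGG, a core of sites bound by EBF factors, was present in 8.56% of member windows and 19.1% of all. TATAAA was present in 31.1% and 11.5%. TAATTA and TATAAA hold only A and T, and the fixed letters of CCCNNGGG only G and C. Member windows have a lower GC content than all windows, and shares at equal base composition were not computed. The shares therefore do not show more or fewer binding sites than base composition gives. The windows of OR7C1 and OR7A5, which share a start, are the same sequence.

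The 18 libraries held between 442159 and 3539937 counts. The 37 genes named with the prefix MT-, which are those of the mitochondrial genome, took 32.7% to 45.6% of the counts on day 3 and 63.6% to 68.5% on day 28. This left 297567 to 1116385 other counts per library. These other counts still include 397 nuclear genes named as copies of mitochondrial genes, and 14 of the 20 genes with the highest counts were among them. They took 4.52% to 7.80% of the other counts on day 3 and 16.3% to 20.2% on day 28. Levels are given in ppm, counts in 1000000 counts of genes not named MT-. Because the copies move with the day, day comparisons of summed levels are also given with the copies left out of that denominator, an alternative chosen after seeing the data, as was the one on chromosomes. Day, mitochondrial share and share of the copies cannot be told apart in these libraries.

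The members together held 8600 counts, 0.0751% of the counts of genes not named MT-, although they were 0.511% of the genes in the table. The count per member over all libraries had a median of 19, with quartiles of 12 and 36.75, a lowest value of 2 and a highest of 228. The median over all genes not named MT- was 29. On average a member had 1.72 counts in a library, and 36.7% of the values of a member in a library were 0 and 26.9% were 1. No member had more than 24 counts in any library. Counts in all 18 libraries were present for 28 members and in at least 9 libraries for 206. The table holds no gene without a count, so receptors that were never cut would not be listed. RefSeq has 288 symbols of this pattern, and the 13 that are not rows of the table were not analysed here.

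Per kilobase of RefSeq gene span, the median member had 7.72 counts over the 18 libraries. The median was 12 for all genes not named MT- with a span. It was 102 for the 85 cytosolic ribosomal protein genes and 63.3 for 10 genes active in every cell. Those 10 ran from 8.20 counts per kilobase for HPRT1 and 11.9 for PGK1 to 501 for EEF1A1. The median member was below the median gene and far below the medians of these active lists, at unequal spans. HPRT1 was close to the median member. The comparison families lay on both sides of the median gene, with medians of 16.9 for keratin associated protein genes, 16.2 for bitter taste receptors, 13.4 for receptor pseudogenes, 10.8 for receptors of families with numbers of 2 digits and 1.42 for beta-defensins. The lists differ in span, with medians of 3212 bases for members, 7968 for all genes not named MT- and 937 for receptor pseudogenes. The medians were 828.5 for keratin associated protein genes and 4643 for beta-defensins. Among members the count per kilobase fell with span, and those of at most 1 kb had a median of 13.6. The lists were not compared at equal span. The table gives no direct measure of a closed state. Accessible sites were not called separately in these data, and no library of naked DNA is included, so the part of the member counts that is background cutting was not measured. In bulk libraries, fewer cells with a cut and fewer cuts in each cell cannot be told apart.

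The count of a member rose with the length of its annotated span up to 30 kb. Over the 275 members with a span Spearman rho was 0.64, and over 34281 genes not named MT- it was 0.73. The 107 members with a span of at most 1 kb had a median count of 13, and their highest was 37. The 89 members with spans of 3 to 10 kb had a median of 32, and the 41 with spans of 10 to 30 kb a median of 46, but the 10 with spans over 30 kb had a median of only 24. Per kilobase the order was the opposite, with medians of 13.6, 5.28, 3.76 and 0.357 counts in these 4 classes. The span is the RefSeq gene from first to last exon, and whether the authors counted over genes or over exons is not given in the sources used here.

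**Figure D1:**
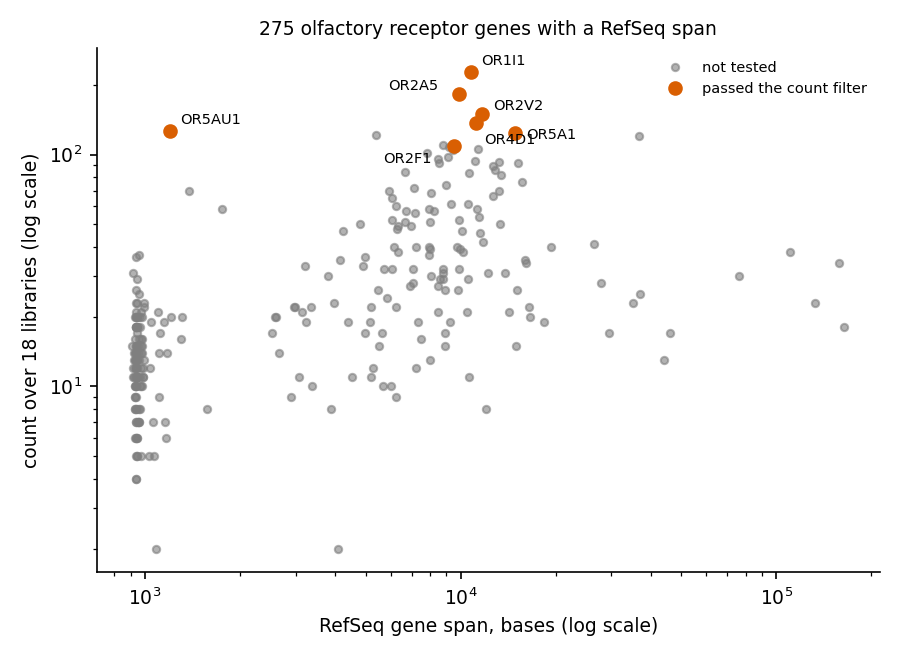
Count over the 18 libraries against RefSeq gene span for 275 olfactory receptor genes, both on log scales, with the 7 genes that passed the count filter in orange. Most genes near 1 kb lie between 4 and 37 counts, and OR5AU1 stands above them with 127 counts in 1199 bases.

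The 12 members with the highest counts held 18.9% of all member counts. These were OR1I1 with 228 counts, OR2A5 with 182, OR2V2 with 150, OR4D1 with 137, OR5AU1 with 127 and OR5A1 with 124. They were followed by OR2H2 with 121, OR7C1 with 120, OR4K2 with 110, OR2F1 with 109, OR4D9 with 108 and OR2A42 with 106. All encode odorant receptors. OR5AU1 on chromosome 14 (21154865 to 21156063) had 106 counts per kilobase of span, near the ribosomal median of 102. The next were OR8A1 with 50.8 counts per kilobase and OR2A2 with 38.7. OR1I1 (ENSG00000094661) on chromosome 19 (15082211 to 15092970) had 21.2 and OR2A5 (ENSG00000221836) on chromosome 7 (144048948 to 144058845) had 18.4. These spans are RefSeq genes on GRCh38.p14, and a position within exon or intron is not resolved by a count per gene.

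Some values rest on reads that could belong to another gene. Of the members, 38 overlap another gene of the table in RefSeq, and their median count was 23, against 19 for the rest. OR7C1 overlaps OR7A5, and OR2A42 overlaps OR2A1-AS1. OR2A42 and OR2A1 are near-identical copies, as are OR4F3, OR4F16 and OR4F29, so the division of reads among them is uncertain. How reads with several matches were treated is not given in the sources used here.

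By family, family 2 had 69 members and 32.6% of the member counts, family 4 had 54 members and 17.0%, and family 5 had 50 members and 14.6%. The smallest was family 3, with 3 members and 1.43%. Among the 18 subfamilies with at least 4 members, the count per member was highest in OR2A with 81.1 over 9 genes. OR4D followed with 52.6 over 7 genes, OR4K with 41.0 over 8, OR5H with 40.7 over 6 and OR2M with 39.4 over 5. The lowest were OR4C with 9.1 over 10 genes, OR4A with 9.2 over 5, OR5M with 9.8 over 5, OR5D with 10.5 over 4 and OR2L with 18.6 over 5. The annotated span differed in the same way for some of these. It had a median of 8013 bases in OR2A and 945 in both OR4A and OR5D, but of 12236 in OR2L. Per kilobase of span the median member had 9.33 counts in OR2A, 11.1 in OR4A, 11.7 in OR5D and 1.21 in OR2L.

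The summed level of the 278 members was compared across days and settings to see whether the signal over genes taken to be silent was constant. It is a description, and no test was run on a sum over the members. In AF4-MLL cells it was 657, 796 and 747 ppm in the 3 libraries of day 3 and 912, 917 and 772 ppm on day 28. The groups overlapped, since the lowest library of day 28 lay below the highest of day 3. For MLL-AF4 it was 637, 757 and 668 on day 3 and 892, 791 and 886 on day 28, and all libraries of day 28 were above those of day 3. In co-expression cells it was 599, 590 and 598 on day 3 and 709, 740 and 723 on day 28, again with no overlap. The group means on day 3 and day 28 were 734 ± 70.7 and 867 ± 82.5 (SD, n = 3) in the first setting, 687 ± 62.3 and 856 ± 56.3 in the second and 596 ± 4.68 and 724 ± 15.4 in the last. The exact 95% binomial interval of a single library ran from 602 to 716 ppm for the first AF4-MLL library of day 3 and from 698 to 905 for the shallowest one. Such intervals cover counting error only. Counting error alone would give SDs of 30.9 and 34.1 ppm in co-expression cells on day 3 and day 28. The SDs of 4.68 and 15.4 seen there were smaller, so they understate the spread between such libraries.

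**Figure D2:**
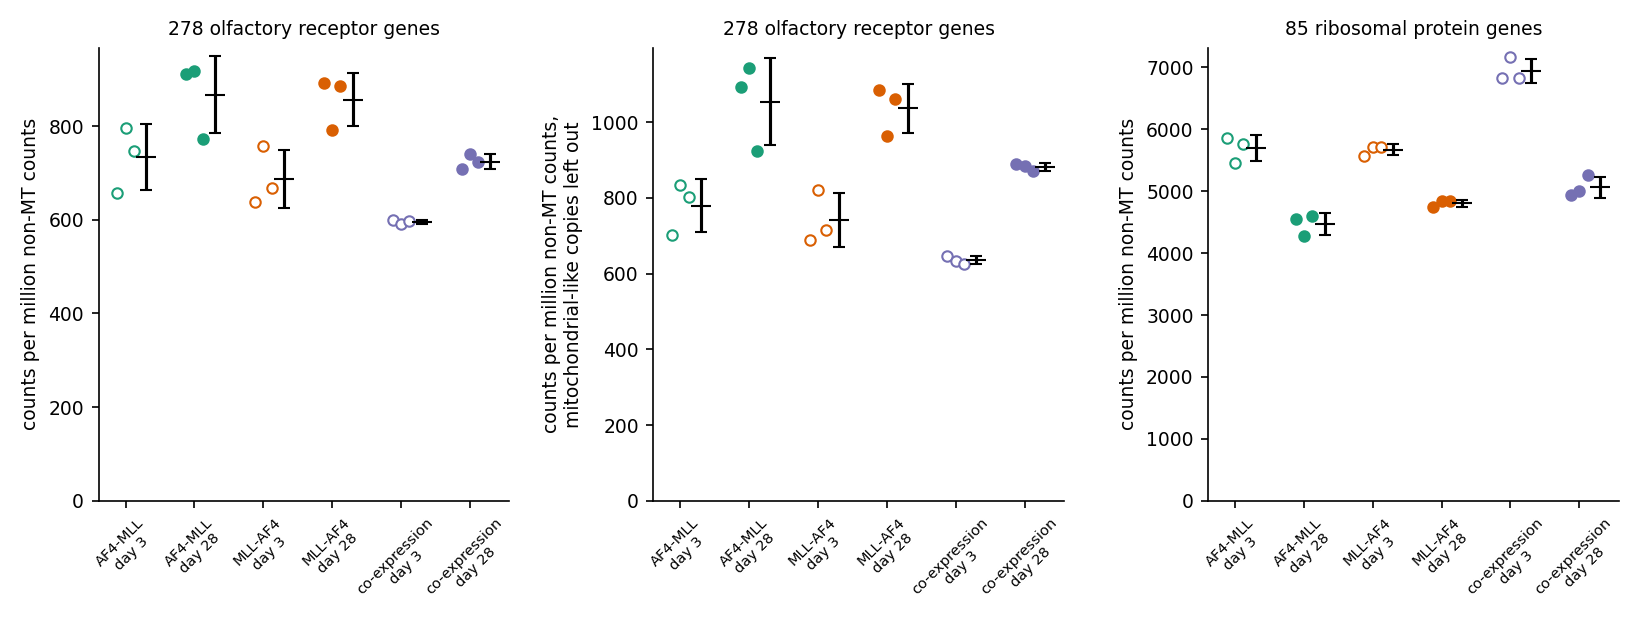
Summed level per library in counts per 1000000 counts of genes not named MT- (ppm), for the 278 olfactory receptor genes (left), for the same genes with mitochondrial-like copies left out of the denominator (middle) and for 85 ribosomal protein genes (right). Open circles are day 3 and filled circles day 28, bars are mean and SD over 3 libraries, and the receptor level is higher and the ribosomal level lower on day 28 under these denominators, while receptors were lower on day 28 as a share of all counts.

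The summed level on day 28 was 1.18, 1.25 and 1.22 times that on day 3 in the 3 settings, as ratios of geometric means. The corresponding differences of mean log2 levels were 0.24, 0.32 and 0.28, against pooled SDs between libraries of 0.14, 0.11 and 0.02 on the same scale. The last SD comes from co-expression libraries that spread less than counting error would give, so it understates the spread. With the mitochondrial copies left out of the denominator the differences were 0.43, 0.48 and 0.47, and all libraries of day 28 were above those of day 3 in each setting. As a share of all counts, mitochondrial genes included, the direction turned, with differences of -0.59, -0.36 and -0.53. The day differences therefore describe the members relative to other nuclear sequence, and their size depends on what that sequence includes.

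**Figure D3:**
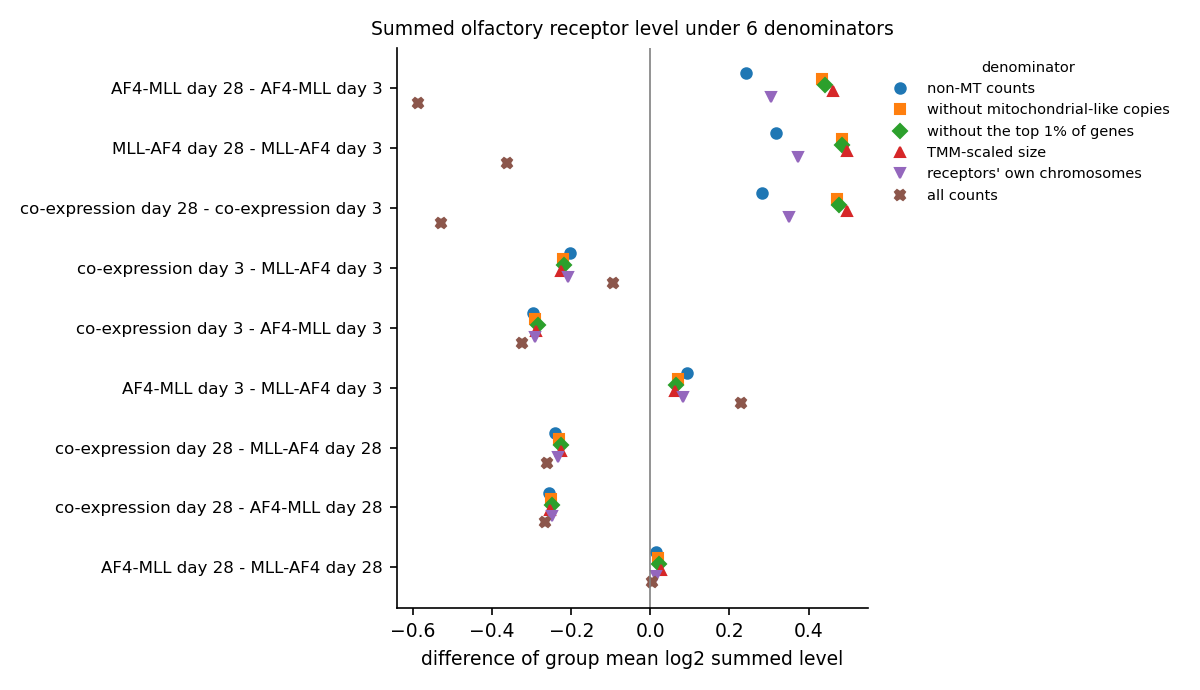
Difference of group mean log2 summed level of the 278 olfactory receptor genes for the 9 comparisons, each under 6 denominators. The 3 day comparisons move from near 0.5 to below 0 between denominators, whereas the 4 comparisons of co-expression cells with cells of 1 fusion gene stay below 0 under all 6.

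A ratio to the counts of ribosomal protein genes gave the same order. These 85 genes were taken by symbol, and their counts over the 18 libraries ran from 1 to 2741, with a median of 600. For every 1000 counts on them, the members had 112, 146 and 129 counts on day 3 in AF4-MLL cells. On day 28 the members had 200, 215 and 168 in the same cells. The MLL-AF4 libraries had 114, 132 and 117 on day 3 and 188, 164 and 183 on day 28. In co-expression cells the values were 87.8, 82.3 and 87.5 on day 3 and 144, 148 and 138 on day 28. The days did not overlap in any setting. The ribosomal genes themselves were lower on day 28, with 4475 ± 179 against 5699 ± 208 ppm in AF4-MLL cells, so the ratio carries both changes.

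Co-expression cells had the lowest summed level on each day. On day 3 their 3 libraries lay between 590 and 599 ppm, below every library of MLL-AF4 cells and of AF4-MLL cells, with log2 differences of -0.20 and -0.30. On day 28 they lay between 709 and 740, again below every library of both other settings, with log2 differences of -0.24 and -0.25. With the mitochondrial copies left out these differences were -0.22 and -0.29 on day 3 and -0.23 and -0.25 on day 28. As a share of all counts the differences on day 3 were -0.09 from MLL-AF4 cells and -0.32 from AF4-MLL cells, and the libraries overlapped in both. AF4-MLL and MLL-AF4 cells overlapped on both days, with log2 differences of 0.09 on day 3 and 0.02 on day 28. Both comparisons of a day use the same co-expression libraries. On both days these libraries spread less than counting error would give, so their narrow ranges do not measure precision. The vectors of the co-expression cells also differ from those of the other settings, so co-expression and vector cannot be told apart.

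By family the day difference had the same sign nearly throughout. Of the 9 families, 9, 8 and 8 were higher on day 28 in the 3 settings, and 9 in each setting with the mitochondrial copies left out. Families without overlap between days then numbered 4, 7 and 5. Family 6 was at 63.9 ± 3.54 on day 3 and 101 ± 17.9 ppm on day 28 in AF4-MLL cells, with the copies left out. Family 9 had ratios of day 28 to day 3 of 2.16, 1.00 and 1.27 in the 3 settings on this scale. These ratios rest on 29 to 85 counts per group, and whether they differ between settings was not tested. Family 4 had the lowest ratio in co-expression cells, 1.08, with 124 ± 4.67 ppm on day 3, 133 ± 17.3 ppm on day 28 and overlap. Family 3, which is OR3A1, OR3A2 and OR3A3 on chromosome 17, had the highest ratio there, but from 7 counts on day 3 and 29 on day 28 in co-expression cells.

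**Figure D4:**
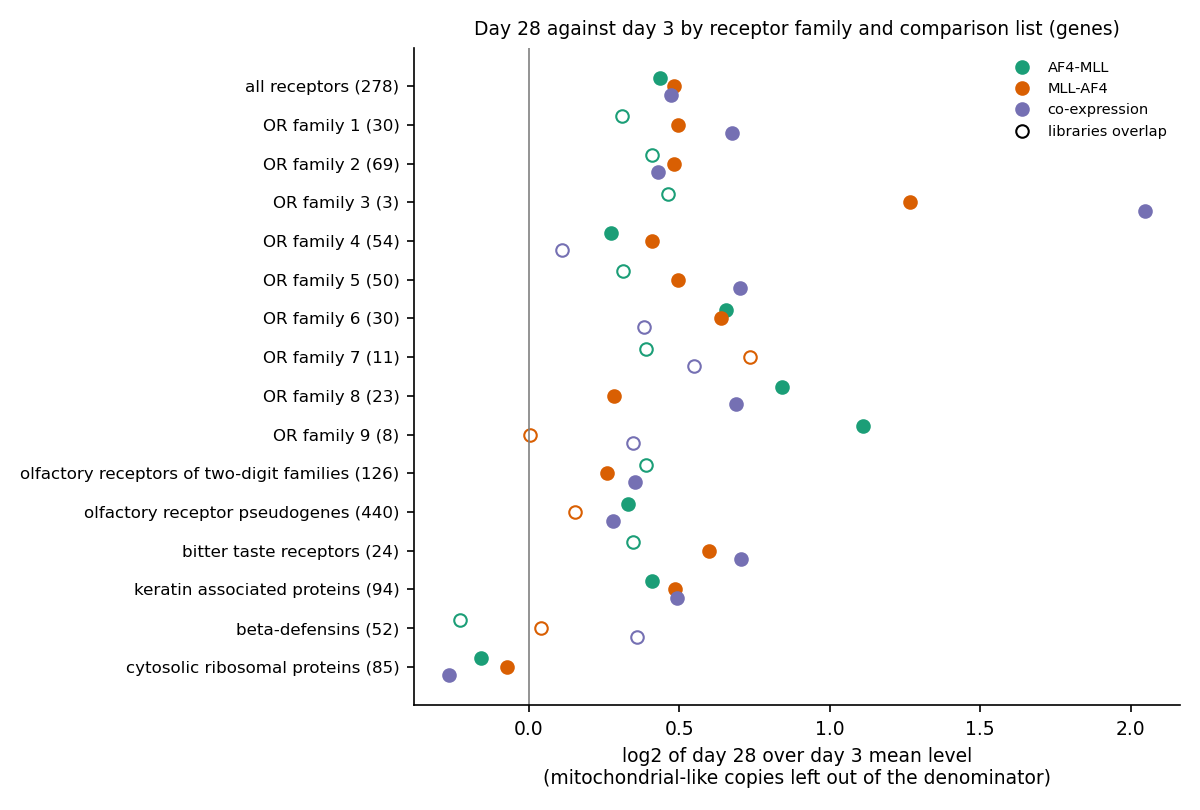
Log2 ratio of the mean level on day 28 to that on day 3 for the olfactory receptor genes, their 9 families and 6 comparison lists (number of genes in brackets), with mitochondrial-like copies left out of the denominator. Colours are the 3 settings, and an open circle marks libraries that overlap between days; receptor families lie at or above 0 and ribosomal protein genes below, and as a share of all counts the summed receptor level was lower on day 28.

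By chromosome, the member level was higher on day 28 for 10, 12 and 13 of 15 chromosomes in the 3 settings, and for 13, 13 and 13 with the mitochondrial copies left out. Without the copies, the libraries then did not overlap for 4, 6 and 7 chromosomes, all of them higher. The 99 members on chromosome 11 were at 201, 207 and 148 ppm on day 3 and at 244, 236 and 193 on day 28 in the 3 settings, as group means. The chromosome 11 levels overlapped between days in AF4-MLL and MLL-AF4 cells, and did not in co-expression cells, while with the copies left out they were higher without overlap in each setting. The 46 members on chromosome 1 had means of 90.7, 102 and 85.3 ppm on day 3 and 134, 122 and 106 ppm on day 28, with overlap only in MLL-AF4 cells, and in no setting with the copies left out. The 11 members on chromosome 6 were at 42.7 ppm on day 3 and 35.3 ppm on day 28 in AF4-MLL cells with no overlap, but at 45.4 and 42.9 ppm with overlap once the copies were left out. Setting the members against the counts of their own chromosomes gave log2 day differences of 0.30, 0.37 and 0.35.

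More members had a count in a library when the summed level was higher. Both values come from the same counts, so this is not a separate observation. With every library thinned to 297567 counts of genes not named MT-, the expected number of members with at least 1 count was 124 ± 10.03 on day 3 and 138 ± 5.18 on day 28 in AF4-MLL cells. For MLL-AF4 it was 118 ± 4.99 and 136 ± 6.84, and in co-expression cells 104 ± 2.55 and 123 ± 1.76 (SD, n = 3). Days did not overlap in any setting, with a highest value of 130 against a lowest of 132 in AF4-MLL cells. Without thinning, at unequal depths, the groups had means of 135 to 212 members.

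Gene by gene, 61.5%, 61.5% and 62.2% of the members had a higher group level on day 28 than on day 3 in the 3 settings. Of all 54388 genes not named MT-, 42.4%, 46.2% and 40.7% were higher. With the copies left out of the denominator the shares were 66.9%, 64.4% and 63.7% of members and 52.5%, 53.3% and 50.1% of all genes. In co-expression cells on day 3, 33.8% of members were higher than in AF4-MLL cells and 42.8% higher than in MLL-AF4 cells, against 41.7% and 46.5% of all genes. On day 28 the shares of members were 39.2% and 39.9%, against 47.5% and 42.9% of all genes. At 1.72 counts per member and library, the direction of a single member has no test behind it here.

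Single genes were tested in a fit over the whole table, with edgeR's quasi-likelihood test, Benjamini-Hochberg adjustment over all genes tested and an adjusted p of 0.05 as the threshold. The low-count filter passed 17660 genes and 7 of the 278 members, OR1I1, OR2A5, OR2V2, OR4D1, OR5AU1, OR5A1 and OR2F1, while 271 members were too low to be tested. The filter sets a count against all counts of its library. OR2F1, OR2V2, OR4D1, OR5A1 and OR5AU1 passed only through day 3 libraries in which their share was high. Differences that involve those libraries are in part selected by the filter. None of the 7 was called in any of the 9 comparisons. Between days the test called 0.606%, 2.87% and 0.606% of all genes in the 3 settings. Between settings on day 3 it called 1.81% for co-expression against MLL-AF4 cells, 1.28% for co-expression against AF4-MLL cells and 0.142% for AF4-MLL against MLL-AF4 cells. On day 28 the same 3 comparisons gave 1.17%, 1.69% and 0.0793%. Against such shares, a count of 0 among 7 genes is not a result about the members. At an unadjusted p under 0.05 there was 1 of the 7 members in the day comparisons of AF4-MLL and of MLL-AF4 cells, in both day 3 comparisons of co-expression cells and in co-expression against MLL-AF4 cells on day 28, and 0 in the other 4, while 8.26% to 15.8% of all tested genes were at that level. DESeq2 called 0 in the comparison of AF4-MLL with MLL-AF4 cells on day 28, and in the other 8 its own filter left the adjusted p of all 7 missing.

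The median log2 difference of the 7 tested members between days was 0.30, 0.67 and 0.20 in the 3 settings, against 0.00 in each over all 17660 genes. These fits use TMM scaling, a factor per library that centres most genes. Scaling by library size alone, mitochondrial counts included, shifts the median of all tested genes between days to -1.06, -0.87 and -1.07. Under that scaling 3 of the 7 members are called lower on day 28 in AF4-MLL cells and 3 in co-expression cells, and OR2A5, OR5A1 and OR5AU1 turn direction in a day comparison.

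OR2A5 had the smallest p between days in both settings with 1 fusion gene. In AF4-MLL cells it had 9, 6 and 4 counts on day 3 and 13, 18 and 13 on day 28, or 4.93, 8.68 and 3.08 against 8.47, 9.94 and 9.07 CPM on TMM-scaled library sizes. The libraries overlapped, and the log2 difference was 0.87 ± 0.40 (SE), with an edgeR adjusted p of 0.471. In MLL-AF4 cells OR2A5 had 7.81, 5.07 and 4.62 CPM on day 3 and 12.4, 8.37 and 14.3 CPM on day 28. These libraries did not overlap, and the log2 difference was 0.92 ± 0.43 (SE) with an edgeR adjusted p of 0.264. In co-expression cells OR2A5 had 8.0, 4.47 and 4.10 CPM on day 3 and 10.8, 4.36 and 5.32 CPM on day 28, with overlap and a log2 difference of 0.42 ± 0.40.

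OR2F1 had 6, 1 and 1 counts on day 3 in AF4-MLL cells, the lowest of its groups, or 3.29, 1.45 and 0.771 CPM. On day 28 it had 3.91, 3.87 and 6.28 CPM in the same cells, all above day 3, with a log2 difference of 1.11 ± 0.60 (SE) and an edgeR adjusted p of 0.577. In co-expression cells on day 3 it had 2.67, 9.69 and 6.15 CPM, overlapping AF4-MLL cells, with a log2 difference of 1.49 ± 0.57 (SE) and an edgeR adjusted p of 0.204. Between AF4-MLL and MLL-AF4 cells on day 3 the log2 difference was -0.88 ± 0.71. The 3 log2 differences of OR2F1 moved when single libraries were left out. Without the first AF4-MLL library of day 3 they were 2.09, 2.48 and -1.87, without the third one the day difference was 0.72 and the last -0.49, and without the second MLL-AF4 library of day 3 the last was -0.12.

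OR4D1 had 14, 7 and 14 counts on day 3 in co-expression cells and 6, 1 and 1 in MLL-AF4 cells, or 9.33, 5.22 and 9.56 against 6.69, 1.27 and 1.16 CPM. The libraries overlapped, and the log2 difference was 1.35 ± 0.54 (SE), with an edgeR adjusted p of 0.193. AF4-MLL cells lay between them on that day with 4.38, 5.79 and 8.48 CPM, 0.93 ± 0.59 above MLL-AF4 cells on the log2 scale. Without the first MLL-AF4 library of day 3, which holds 6 of the 8 counts of its group, these differences were 2.66 and 2.24, and the second was 0.59 without the third AF4-MLL library, 0.60 without the second MLL-AF4 library and 0.54 without the third. From day 3 to day 28 OR4D1 went to 6.11, 5.60 and 5.32 CPM in co-expression cells. This is a log2 difference of -0.48 ± 0.40, opposite in sign to the summed level. OR4D1 passed the filter only through day 3 libraries, so its differences that involve day 3 are in part selected.

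OR5A1 had 3.29, 2.49 and 6.65 CPM in co-expression cells on day 28, against 4.94, 8.37 and 10.7 CPM in MLL-AF4 cells and 8.47, 6.63 and 4.19 CPM in AF4-MLL cells. Both comparisons overlapped, with log2 differences of -1.14 ± 0.46 (SE, edgeR adjusted p = 0.249) and -0.84 ± 0.46 (SE, edgeR adjusted p = 0.454). Where a fit that left out a library of these groups still tested OR5A1, they were -1.41 and -1.11. In the other such fits OR5A1 fell below the filter. On day 3 it had 2.67, 2.24 and 3.42 CPM in co-expression cells and 6.69, 5.07 and 2.31 CPM in MLL-AF4 cells, with a log2 difference of -0.74 ± 0.62. It was -0.37 without the first MLL-AF4 library of day 3. Between days in MLL-AF4 cells the log2 difference was 0.75 ± 0.50, and 0.42 without the third library of day 3.

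OR5AU1, the receptor with the most counts per kilobase, had 2.0, 2.24 and 4.78 CPM in co-expression cells on day 3 and 6.03, 7.23 and 5.39 CPM in AF4-MLL cells. All co-expression libraries were lower, with a log2 difference of -0.98 ± 0.51 (SE) and an edgeR adjusted p of 0.427. On day 28 the difference between these settings was -0.42 ± 0.44, and between days in co-expression cells it was 0.56 ± 0.53. Without the third co-expression library of day 3, the day 3 difference was -1.47 and the day difference 1.06, and without the first one the day difference was 0.32. Without the first co-expression library of day 28 the day difference was 0.86 and the day 28 difference -0.12, and without the third they were 0.30 and -0.68. OR2V2 and OR2A5 had the smallest p between AF4-MLL and MLL-AF4 cells on day 28, with log2 differences of 0.33 ± 0.39 and -0.28 ± 0.33. The second AF4-MLL library of day 28 holds 21 of the 38 counts of OR2V2 in that group, and without it the difference was -0.13, while it was 0.49 without the first and 0.50 without the third. For OR2A5 it was -0.53 without the second MLL-AF4 library of day 28 and -0.12 without the third. OR1I1, the receptor with the most counts, was between 5.58 and 13.1 CPM in all 18 libraries, and the largest of its 9 log2 differences was 0.53 ± 0.34, higher in co-expression than in MLL-AF4 cells on day 28. Differences between settings in the day effect were tested for the 7 members as interaction terms, and the smallest of the 21 edgeR adjusted p-values was 0.594.

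**Figure D5:**
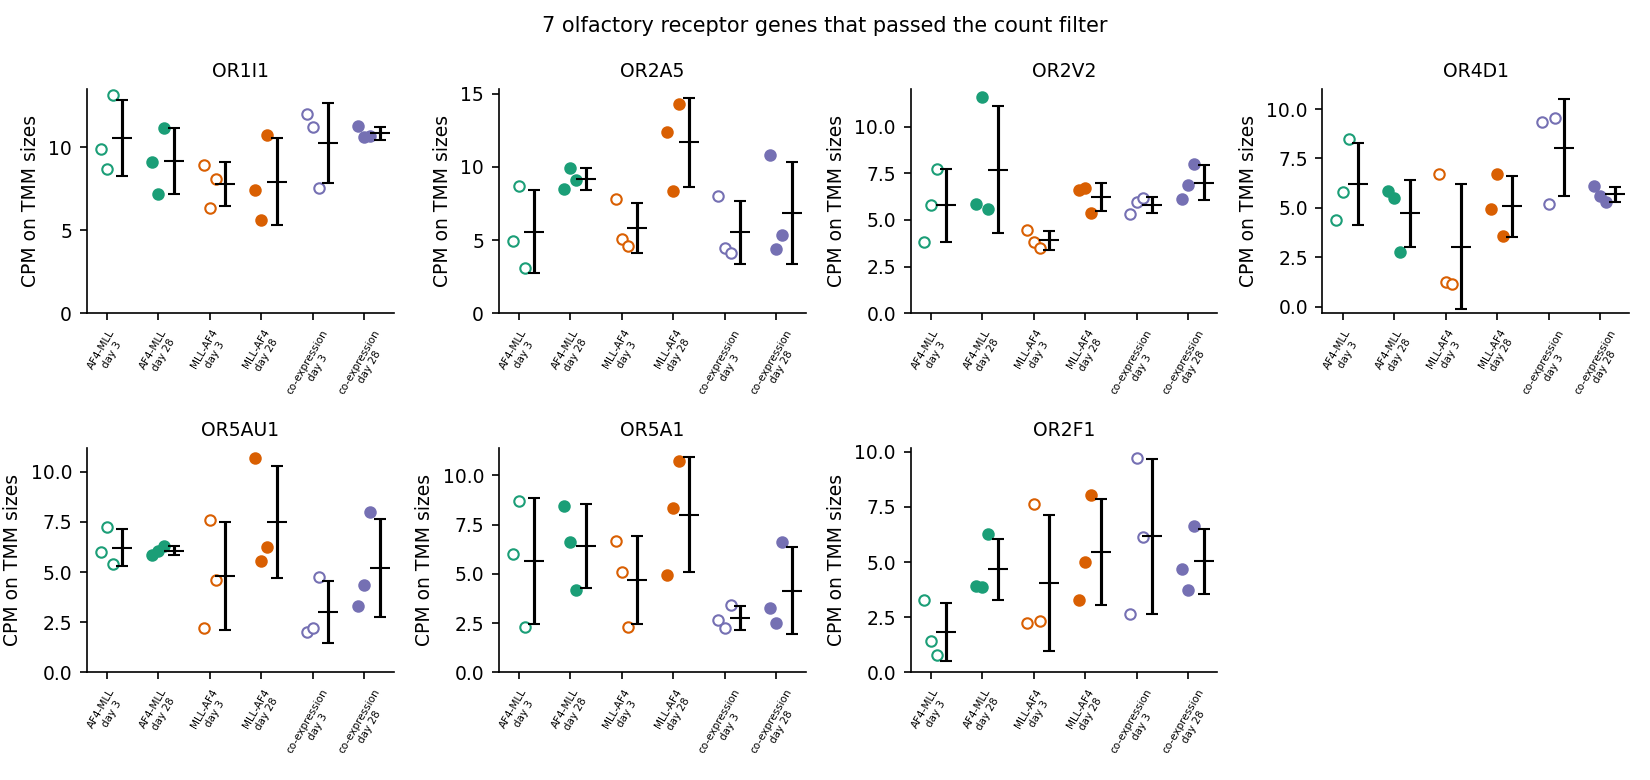
CPM on TMM-scaled library sizes for the 7 olfactory receptor genes that passed the count filter, by group, with open circles for day 3, filled circles for day 28 and bars for mean and SD over 3 libraries. OR1I1 has the narrowest range relative to its level, from 5.58 to 13.1 CPM, and the values of all 7 run from 0.771 CPM for OR2F1 to 14.3 CPM for OR2A5.

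The other 5 of the 12 highest members fell below the filter and are given by their levels in ppm, with no test. OR7C1 had 6.94 ± 1.80, 8.74 ± 2.67 and 6.93 ± 0.990 ppm (SD, n = 3) on day 3 in the 3 settings and 12.6 ± 3.70, 12.6 ± 1.92 and 12.7 ± 2.66 ppm on day 28, the most even of the 5 across settings. OR2A42 had 7.90 ± 3.80 ppm on day 3 and 14.8 ± 3.45 ppm on day 28 in AF4-MLL cells, and 7.20 ± 3.11 ppm on day 28 in co-expression cells. OR2H2 had 22 of its 36 counts on day 28 of co-expression cells in the first library. OR4K2 had 12.9 ± 6.99 ppm on day 3 and 8.52 ± 2.56 ppm on day 28 in co-expression cells, against 6.01 ± 3.18 and 9.89 ± 4.31 ppm in AF4-MLL cells. OR4D9 had 14, 2 and 5 counts in the AF4-MLL libraries of day 3 and 8, 13 and 9 on day 28. The spread of these genes within a group was thus often as large as the differences between groups.

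Without the filter all 278 members were tested among 54425 genes, and again 0 were called in each comparison. Between days the unfiltered edgeR test called 0.167%, 0.456% and 0.182% of all genes in the 3 settings. On day 3 it called 0.487% for co-expression against MLL-AF4 cells, 0.197% for co-expression against AF4-MLL cells and 0.0184% for AF4-MLL against MLL-AF4 cells. On day 28 these were 0.189%, 0.226% and 0.00735%. At an unadjusted p under 0.05 there were 18, 17 and 19 members between days, 6.47%, 6.12% and 6.83% of the members, against 5.70%, 7.85% and 6.11% of all genes. Between settings there were 10 to 14 members, 3.60% to 5.04% of the members, against 4.67% to 7.59% of all genes. The smallest adjusted p of any member was 0.204, for OR5A2 between days in MLL-AF4 cells.

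Other gene families, and the ribosomal protein genes, were summed in the same way. With the copies left out, the 126 receptors of families with numbers of 2 digits had means of 328, 338 and 300 ppm on day 3 and 430, 405 and 383 ppm on day 28 in the 3 settings. These are log2 ratios of 0.39, 0.26 and 0.35, with overlap in AF4-MLL cells. The 440 receptor pseudogenes had log2 ratios of 0.33, 0.15 and 0.28, and the 94 keratin associated protein genes, which act in hair, 0.41, 0.49 and 0.49. The 24 bitter taste receptors had 0.35, 0.60 and 0.71. The 52 beta-defensin genes, which encode antimicrobial peptides, had -0.23, 0.04 and 0.36, all with overlapping libraries. The ribosomal protein genes had -0.16, -0.07 and -0.26, with all libraries of day 28 below day 3. No difference between these lists was tested. Relative to all genes not named MT-, copies included, the day ratios of the pseudogenes were 1.10, 0.99 and 1.06, with overlap in each.

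The setting difference was also seen side by side. Co-expression cells were at 0.815 and 0.856 times the member level of AF4-MLL and MLL-AF4 cells on day 3 and at 0.836 and 0.850 times on day 28, with the copies left out. For the pseudogenes these ratios were 0.909, 0.884, 0.879 and 0.966, with overlapping libraries in each. For the receptors of families with numbers of 2 digits they were 0.914, 0.887, 0.891 and 0.946, with all co-expression libraries lower in the last and overlap in the others. The beta-defensins had 0.692, with all co-expression libraries lower, and 0.774, 1.04 and 0.965 with overlap. The keratin associated protein genes lay between 0.927 and 0.982 and the bitter taste receptors between 0.805 and 1.10, all with overlap. For the ribosomal protein genes the ratios were 1.22, 1.21, 1.13 and 1.06, with all co-expression libraries higher.

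The machinery that olfactory neurons use to signal from these receptors was described by a list of 13 genes. It includes the G protein subunit GNAL, the adenylyl cyclase ADCY3, the cyclic nucleotide-gated channel subunits CNGA2, CNGA4 and CNGB1 and the chloride channel ANO2. OMP, the olfactory marker protein that defines the mature neuron, had 7 counts over the 18 libraries and at most 3 in any. CNGA2 had 51 and at most 6. OMP spans 492 bases, so it had 14.2 counts per kilobase, above the median member at 7.72. The median over the 13 genes was 290 counts and 4.71 per kilobase. PDE4A had 958 counts, CNGA4 757 (74.3 per kilobase), GNAL 611 and ADCY3 600. Of the 13 genes 10 passed the filter. In 7 of the 9 comparisons edgeR called 0, with 0 to 3 of the 10 at an unadjusted p under 0.05, and in MLL-AF4 cells between days and in co-expression against MLL-AF4 cells on day 28 there was 1 lower gene each. CNGA4 fell between days in MLL-AF4 cells, from 50.2, 43.1 and 30.1 to 26.4, 23.4 and 25.1 CPM. The log2 difference was -0.73 ± 0.21 (SE) with an edgeR adjusted p of 0.0306, but it lost its call when any of 5 of the 6 libraries was left out, and its DESeq2 adjusted p was 0.0870. PDE1C, a phosphodiesterase, was lower in co-expression than in MLL-AF4 cells on day 28, at 7.99, 8.09 and 1.33 against 17.3, 13.9 and 15.2 CPM. The log2 difference was -1.15 ± 0.32 (SE) with an edgeR adjusted p of 0.0425, and this call was lost when any of the 6 libraries was left out.

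The receptor trafficking genes RTP1, RTP2 and REEP1, which bring receptors to the cell surface, had 24, 14 and 318 counts. Only REEP1 was tested, and in all 9 comparisons it had an unadjusted edgeR p above 0.05. Of the 21 genes for receptor choice and silencing all passed the filter. They include the activators LHX2, LDB1 and EBF1, the demethylase KDM1A, the methyltransferases EHMT1, EHMT2, SETDB1 and SUV39H1, the heterochromatin proteins CBX1, CBX3 and CBX5 and the nuclear envelope proteins LBR and LMNA. In 8 of the comparisons 0 of the 21 were called, with 1 to 5 at an unadjusted edgeR p under 0.05, a level that 8.26% to 15.8% of all tested genes reached over the 9 comparisons. In co-expression against AF4-MLL cells on day 28, 1 was called and 8 of the 21 were at that level, where 12.7% of all tested genes were. The called gene was LBR, the lamin B receptor that holds heterochromatin at the nuclear envelope. It had 16.5, 26.1 and 26.6 CPM in co-expression cells and 40.4, 39.2 and 37.0 CPM in AF4-MLL cells, with no overlap. The log2 difference was -0.84 ± 0.19 (SE), with an edgeR adjusted p of 0.00359, while its DESeq2 adjusted p was 0.0909. Without the first co-expression library of day 28 the difference was -0.56 with an edgeR adjusted p of 0.276.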

How the data were processed

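The authors deposited 1 table of counts per gene, raw and not normalized, for the 18 ATAC-seq libraries. The submitters' processing notes name bcl2fastq, Bowtie2, HTSeq and GRCh38, and their options are not given in the sources used here. The members, the lists and the tests were chosen with earlier results of these data known. Genes were tested with edgeR 4.0.16 (R 4.3.3) by quasi-likelihood over all 6 groups, after filterByExpr (minimum count 10, minimum total 15) and TMM scaling, with Benjamini-Hochberg adjustment. Named were the 12 members with the highest total, all members that passed the filter, the 2 with the smallest p in each comparison, any called gene of the pathway lists, and the 5 highest and 5 lowest subfamilies of at least 4 members. Others were named after their values were seen. DESeq2 1.42.0, other scalings and denominators, no filter, a replicate block and leaving out each library were the alternatives. Summed levels were described with Python 3.11.15, numpy 2.4.6, pandas 2.3.3 and scipy 1.17.1, with exact 95% binomial intervals. The fit was tested on simulated data. Promoter windows and gene spans came from RefSeq (GRCh38.p14), which gave windows for 215 members.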

Additional observations from a re-analysis of the deposited data

How the results depend on the processing

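The counts per member limit what can be seen here, since 271 members could not be tested with the filter. The number of members called was 0 under TMM on nuclear counts, no filter and every fit that left out 1 library (range 0 to 0). The filter was applied again in each of those fits. Members such as OR5A1 fell below it in some of them and were not tested there. With library size scaling it was 3 between days in AF4-MLL cells and 3 in co-expression cells, all lower, and the day differences turned for OR2A5 (AF4-MLL, -0.19), OR5A1 (MLL-AF4, -0.11) and OR5AU1 (co-expression, -0.49). That scaling sets the median of all tested genes lower on day 28. On day 28, OR2V2 in AF4-MLL relative to MLL-AF4 cells ranged from -0.13 to 0.50 when 1 library was left out, and was -0.13 without the second AF4-MLL library. For the summed level between days, in the order of the 3 settings, all counts as the denominator gave -0.59, -0.36 and -0.53, TMM-scaled sizes 0.46, 0.50 and 0.50, counts without the top 1% of genes 0.44, 0.48 and 0.48, and counts without the mitochondrial copies 0.43, 0.48 and 0.47. In co-expression cells it was 0.33 without the 5 highest members, 0.24 with receptors of every family and 0.35 against the members' own chromosomes. All counts gave -0.094 for co-expression against MLL-AF4 cells and 0.23 for AF4-MLL against MLL-AF4 cells on day 3. Leaving out 1 library gave 0.16 to 0.32, 0.27 to 0.39 and 0.27 to 0.30 between days. For co-expression against MLL-AF4 cells the range was -0.26 to -0.13 on day 3 and -0.30 to -0.21 on day 28, and against AF4-MLL cells -0.37 to -0.23 and -0.34 to -0.21. For AF4-MLL against MLL-AF4 cells it was 0.03 to 0.17 and -0.04 to 0.10. Unthinned, 168, 212, 135, 197, 157 and 189 members had a count on day 3 and day 28 of the settings in order, and with at least 2 thinned counts 48.9, 62.7, 49.5, 62.1, 38.8 and 50.1. With the replicate number as a block (replicate block), 0 members were called in each of the 9 comparisons. Of 45 same-numbered pairs 0 had a correlation of deviations over 0.1, and 5 of 18 libraries correlated best with their own number, so the numbers were not taken to pair the libraries. For the other values that moved or turned, the cause was not tested.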
